A study of Gallus gallus with 54 samples.

Results

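The 150 steadiest genes of 3 chicken (Gallus gallus) tissues are described here. They were taken from 24881 gene identifiers counted in heart, breast muscle and spleen. A gene had to have a mean CPM of at least 20 (CPM are the counts of a gene scaled to a common library size) in each tissue, which 3046 genes had. The 100 genes with the highest level in their lowest tissue were set aside, and the remaining 2946 were ranked by the SD of log2(CPM + 1) over all 54 libraries. Values for all ranked genes include the 150. The 150 with the lowest SD are the steady genes. CPM here are scaled by TMM (trimmed mean of M values), which assumes that most genes do not differ between libraries. By the edgeR test below, 78.8%, 80% and 86.2% of all genes tested differed between pairs of tissues. Between tissues those calls do not meet the assumption. The SD, the levels and every contrast of tissue or altitude below were used to choose the steady genes. They are therefore given as descriptions.

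The series title names indigenous chickens of Ethiopia, and the labels give 2 origins, a low altitude breed labelled as adapted to heat and a high altitude breed labelled as not adapted to heat. Each origin gave 9 libraries of heart, 9 of breast muscle (called meat in the titles, and muscle from here on) and 9 of spleen. Titles carry the codes L1 to L9 and H1 to H9 in every tissue. Whether libraries with the same code share a bird is not stated, nor are age, sex and rearing. With nothing in the labels on separate animals, p-values measure only the spread between these libraries.

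Genes of even level across tissues are often called housekeeping genes. As a class they are known to encode machinery that every cell needs, such as that for splicing, translation, protein turnover and membrane traffic, and some serve as internal references when transcripts are measured by quantitative PCR. A reference gene has to hold its level between tissues and also between individuals of a tissue. The ranking used here takes spread between tissues and between libraries together in a single SD, with no separate limit on either. The files give Ensembl gene identifiers without symbols, and 0 of them matched the reference table of 25635 genes used here. The role of each steady gene therefore remains unnamed, tissue marker genes could not be looked up, and levels of different genes are not compared, since transcript lengths are not known.

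Library totals ran from 9.31 M to 15.2 M counts over the 54 libraries. The 20 most abundant genes of a library held 32.2% to 61.5% of its counts in heart, 13.9% to 50.6% in muscle and 11.5% to 17.4% in spleen. TMM factors, which multiply the library size, ran from 0.567 to 1.07 in heart, from 0.503 to 1.31 in muscle and from 1.61 to 2.17 in spleen. The muscle library H1 had the lowest share of the 20 most abundant genes (13.9%) and the highest factor of its tissue.

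The steady genes had SDs from 0.151 to 0.336 on the log2 scale, with a median of 0.311. Over all 2946 ranked genes the median SD was 0.664 and the highest 3.97. The step at the end of the list was small. ENSGALG00000002603, the last gene taken, and ENSGALG00000007308, the first gene passed over, both had an SD of 0.336, and the next one outside had 0.337. At the other end, ENSGALG00000004683 stood alone with 0.151, and the gene after it, ENSGALG00000012473, had 0.227. The 100 most abundant genes set aside had a median SD of 0.601, with 0.252 as their lowest.

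**Figure D1:**
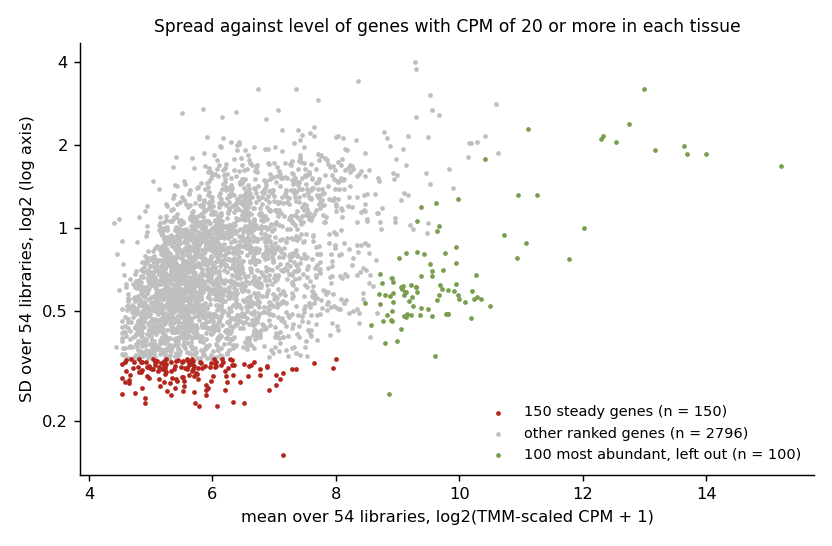
SD over 54 libraries (log axis, log2 units) against mean log2(TMM-scaled CPM + 1) for the 150 steady genes (red), the other ranked genes (grey) and the 100 most abundant genes set aside (green). The red points lie at SDs from 0.151 to 0.336 and one of them stands apart at the bottom.

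ENSGALG00000004683, the steadiest gene, held nearly one level in all 6 groups. In heart its log2(CPM + 1) had a lowest value of 7.03, a median of 7.18 and a highest value of 7.46 in low altitude libraries, against 6.92, 7.18 and 7.32 in high altitude libraries. In muscle these were 6.88, 7.16 and 7.49 at low altitude and 6.93, 7.15 and 7.40 at high altitude. Spleen gave 6.76, 7.17 and 7.31 at low altitude and 6.83, 7.12 and 7.31 at high altitude. All 6 groups overlapped, and the whole range over 54 libraries was 0.729. The raw counts behind these values ran from 821 in a muscle library to 4467 in a spleen library.

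**Figure D2:**
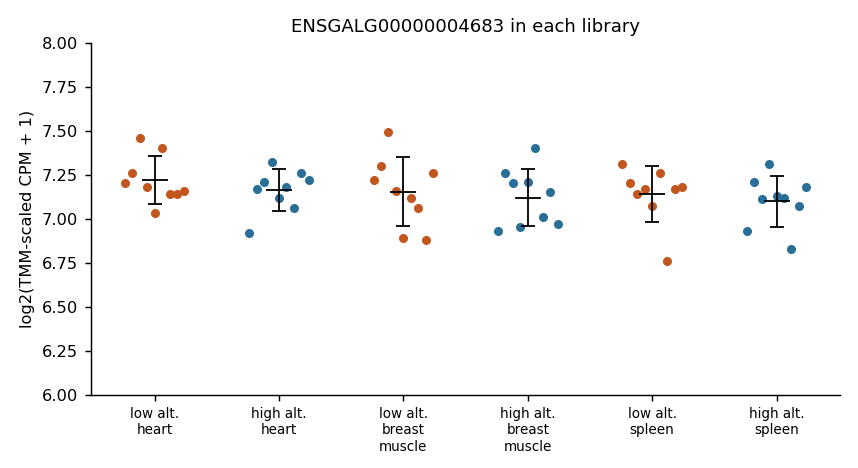
ENSGALG00000004683 in each of 54 libraries as log2(TMM-scaled CPM + 1), on an axis cut to the range from 6 to 8, in the order of replicate number within a group. Points are libraries, long dashes are group means and bars are SDs (n = 9 per group); the lowest value, 6.76, is a low altitude spleen.

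The next steadiest gene, ENSGALG00000012473, was less even. Its median was 6.16 in low altitude hearts and 5.84 in high altitude hearts, 6.13 in low and 6.25 in high altitude muscle, and 6.02 in low and 5.95 in high altitude spleens. Its range over the 54 libraries was 1.24, with the highest value, 6.86, in high altitude muscle. A steady gene was thus seldom flat: 3 of the 150 had a range under 1 log2 unit over all libraries, and 3 of the 2946 ranked genes did. The median range of the steady genes was 1.42, and that of all ranked genes 2.72.

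For most steady genes the spread lay between libraries of the same group. Differences between libraries within a tissue and altitude made up a median of 71.0% of a steady gene's variance, tissue made up 23.4% and altitude within tissue 3.91%. Over all ranked genes the medians were 30.1%, 67.0% and 2.02%. In 133 of the 150 steady genes (88.7%) the part between libraries was larger than the part of tissue, against 841 of the 2946 ranked genes (28.5%). Tissue means lay within 0.25 log2 of each other in 36 steady genes (24%) and in 98 ranked genes (3.33%). These shares follow from a ranking by total SD, which removes genes that differ between tissues.

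With both altitudes pooled, spleen libraries were the most alike and muscle libraries the least for the steady genes. The SD between libraries of a group, pooled over both altitudes, had a median over the steady genes of 0.264 in heart, 0.294 in muscle and 0.178 in spleen. Spleen was the tissue of lowest spread for 118 of the 150 steady genes (78.7%), and muscle that of highest spread for 93 (62%). The same order held over all ranked genes, with medians of 0.356 in heart, 0.411 in muscle and 0.254 in spleen. For them spleen was lowest in 74.5% and muscle highest in 61.2%. The 100 most abundant genes set aside did not keep this order, with medians of 0.498 in heart, 0.441 in muscle and 0.499 in spleen. Counting error, worked out from the read counts, had medians of 0.0638 in heart, 0.0750 in muscle and 0.0429 in spleen for the steady genes. The spread was therefore several times what counting alone gives in each tissue. The lowest raw count of any steady gene in any library was 68.

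**Figure D3:**
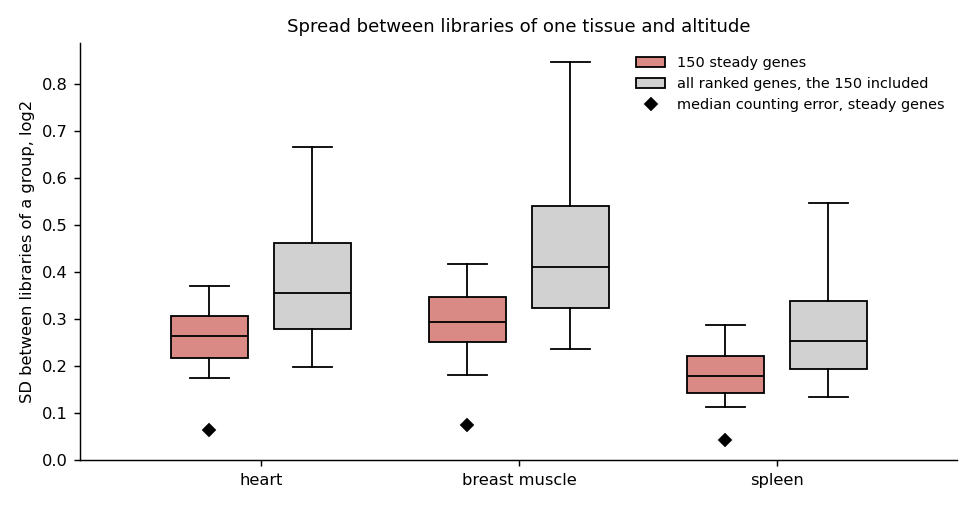
SD between libraries of one tissue and altitude (log2 units, pooled over both altitudes) for the 150 steady genes (red) and all ranked genes (grey); boxes show quartiles, whiskers the central 90% of genes. Diamonds mark the median counting error of the steady genes, which lies under the boxes in all 3 tissues.

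Within muscle the spread was wider at high altitude. The median SD of the steady genes was 0.238 in low and 0.333 in high altitude muscle. In heart it was 0.275 at low and 0.225 at high altitude, and in spleen 0.179 at low and 0.166 at high altitude. All ranked genes gave the same order in muscle, 0.321 at low and 0.470 at high altitude. By these medians muscle had the widest spread of the tissues at high altitude only. At low altitude heart had the widest spread, also over all ranked genes, with 0.3815 there. The differences in spread were not tested. High altitude muscle includes the libraries H1, H4, H7 and H8, and the spread without them was not worked out.

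Departures were unevenly spread over the libraries. In the low altitude heart L4, 50 of the 150 steady genes lay more than 1.5-fold from their own median over all libraries, and in the low altitude heart L5, 31 did. In high altitude muscle 28 did in H7 and in H8, 27 in H1 and 26 in H5 and in H6, and the median of that group was 26. The median over the 54 libraries was 5 genes, and no spleen library had more than 6. Heart L4 held the lowest value of 28 steady genes and heart L5 the highest value of 21. The high altitude muscle H7 held the highest value of 22, and H1 that of 14. These counts were made for the steady genes alone, so they do not show whether other genes of these libraries departed as much. Each gene's median was taken over all 54 libraries, so differences between tissues enter the 1.5-fold counts. Without hearts L4 and L5, 134 of the 150 genes were chosen again. Without the 4 muscle libraries H1, H4, H7 and H8, which earlier results of these data set apart, 106 were. Of those 4, H4 had 17 steady genes past 1.5-fold, fewer than H5 and H6, which stayed in.

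After each gene was centred within its group, correlations between pairs of steady genes over the 54 libraries had a median of 0.07, and 90% of them lay between -0.38 and 0.49. Over all ranked genes the median was 0.04, with 90% between -0.46 and 0.54. The leading principal component held 19.0% of their variance, against 24.5% over all ranked genes. The ranking and TMM scaling used the same values, so these are descriptions. Each pair of genes shares the depth and scaling of its libraries. Departures followed the code to a small degree. Over the 18 codes, the median correlation of a steady gene's departures was 0.12 between heart and muscle, 0.23 between heart and spleen and 0.14 between muscle and spleen. For all ranked genes it was 0.12, 0.30 and 0.13.

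Whether the steady genes held one level across tissues depended on the scaling. By library size alone, with no TMM factors, all 150 had their highest mean in spleen. They held 0.672% ± 0.129 of the counts in heart, 0.659% ± 0.208 in muscle and 1.63% ± 0.0698 in spleen (SD, n = 18 each). In heart the share was 0.619% ± 0.0849 at low and 0.725% ± 0.148 at high altitude, in muscle 0.587% ± 0.0848 at low and 0.731% ± 0.271 at high altitude, and in spleen 1.61% ± 0.0634 at low and 1.66% ± 0.0688 at high altitude (SD, n = 9 each). No heart or muscle library reached the lowest spleen library, which held 1.53%. The nearest was the muscle library H1, with 1.35%.

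On the log2 scale, the mean of the 150 genes by library size alone was 5.25 ± 0.26 in heart, 5.19 ± 0.38 in muscle and 6.55 ± 0.08 in spleen. After TMM scaling it was 5.58 ± 0.07, 5.72 ± 0.08 and 5.68 ± 0.05 (SD, n = 18 each). By library size the steady genes were 2.46-fold higher in spleen than in heart and 2.56-fold higher than in muscle, and after TMM these folds were 1.08 and 0.978. Most genes moved in the same way. The median log2 fold change of heart over spleen over all 14176 genes tested was -0.10 with TMM and -1.32 by library size, and for the steady genes -0.10 and -1.33. That of muscle over spleen was -0.24 and -1.65 over all genes, and 0.14 and -1.29 for the steady genes. Heart over muscle gave 0.22 and 0.41 over all genes, and -0.20 and -0.01 for the steady genes. Over the ranked genes the medians were 0.13 and -1.10 for heart over spleen and 0.64 and -0.79 for muscle over spleen. For heart over muscle they were -0.43 and -0.23. The counts do not show which scaling gives the amount of a transcript per cell, and in bulk tissue fewer cells of a type and less RNA per cell cannot be told apart.

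**Figure D4:**
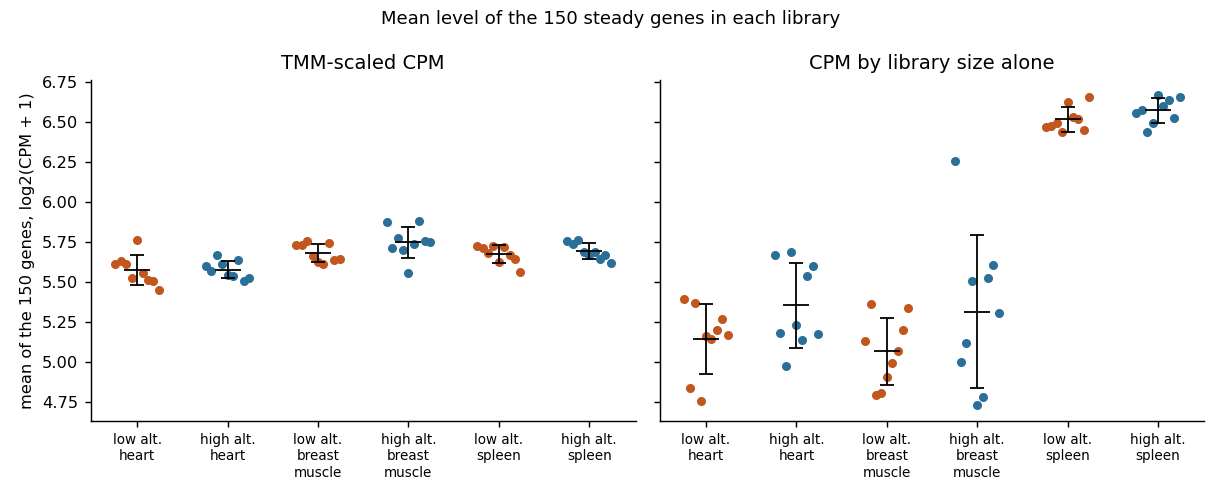
Mean log2(CPM + 1) of the 150 steady genes in each library after TMM scaling (left) and by library size alone (right), by tissue and altitude. Points are libraries, dashes are means and bars are SDs (n = 9 per group); on the right the 18 spleen libraries lie above all others, and on the left the groups overlap.

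Ranked by library size alone, the 150 steadiest genes shared 0 with the steady genes. The best placed steady gene came at rank 342. The genes chosen by library size were spread evenly there, with medians of their tissue means at 5.73 in heart, 5.81 in muscle and 5.85 in spleen. After TMM the same genes stood at 6.06, 6.34 and 4.99. None was highest in spleen, against 794 of the 2946 ranked genes (27%). This follows from choosing genes even by library size, since every spleen library had a larger TMM factor than any heart or muscle library. A measure that needs no scaling is the SD of the log2 ratio of a pair of genes within each library, and this measure was chosen after the data were seen. Its median over pairs was 0.412 for the steady genes, 0.457 for the 150 genes chosen by library size and 0.963 for all ranked genes. It uses the values that ranked the genes, and a low SD of both genes of a pair limits the SD of their ratio, so it is given as a description. The steadiest pair among the steady genes was ENSGALG00000007653 and ENSGALG00000007810, with an SD of 0.192, and the lowest SD over pairs of all ranked genes was 0.116. The pair was named after its value was seen.

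The tissues were compared in 1 fit of all 54 libraries. Differences between tissues were small for the steady genes, of about the size of the SD between libraries of a tissue, and with 18 libraries a tissue many of them passed the test. By edgeR's quasi-likelihood test at a Benjamini-Hochberg adjusted p under 0.05, 87 of the 150 passed for heart over muscle, 13 higher and 74 lower, where 78.8% of all genes passed (43.9% higher, 34.8% lower). For heart over spleen 70 passed, 25 higher and 45 lower, against 80% of all genes (37.8% higher, 42.2% lower). For muscle over spleen 83 passed, 61 higher and 22 lower, against 86.2% of all genes (39.1% higher, 47.2% lower). Of the 2946 ranked genes, 636 were higher and 1705 lower for heart over muscle, and 1306 and 979 for heart over spleen. For muscle over spleen 1820 ranked genes were higher and 713 lower. Median sizes of the steady genes were 0.24, 0.17 and 0.22 on the log2 scale, regardless of sign, and those of all genes 1.10, 1.09 and 1.62. Differences above 1.5-fold were found in 4, 1 and 2 steady genes, while 58.1%, 53.2% and 69.2% of the ranked genes had one. Tested against a fold of 1.5, 1 steady gene passed for heart over muscle, 0 for heart over spleen and 0 for muscle over spleen, where 58.7%, 59.1% and 71.7% of all genes did.

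The split of directions moved with the scaling. With RLE (median of ratios) factors, heart over muscle had 20 steady genes higher and 51 lower (46.3% and 32.5% of all genes), and muscle over spleen 40 higher and 42 lower (37.2% and 49.1%). Of the ranked genes, 716 were higher and 1577 lower for heart over muscle, and 1729 and 795 for muscle over spleen. By library size alone heart over muscle had 25 steady genes higher and 18 lower (47.6% and 28.7% of all genes). There 779 ranked genes were higher and 1378 lower. All 150 were then lower in heart than in spleen, where 70.3% of all genes were lower and 16.1% higher. All 150 were also lower in muscle than in spleen, where 71.4% were lower and 17.9% higher.

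The steady gene that differed most between tissues was ENSGALG00000000550. In heart its log2(CPM + 1) had a lowest value of 5.04, a median of 5.30 and a highest value of 5.71, against 5.68, 6.09 and 6.19 in muscle. The groups met only at their ends, and the log2 fold change was -0.76 (SE 0.07, edgeR adjusted p = 1.37e-15). It is also the 1 gene past the test against a fold of 1.5. ENSGALG00000004555 was lower in heart as well, with a median of 5.54 there and 6.21 in muscle (log2 fold change -0.64, SE 0.08). In the other direction, ENSGALG00000016737 had a median of 5.89 in heart and 5.29 in muscle, and ENSGALG00000016427 one of 5.73 and 5.30, with log2 fold changes of 0.47 and 0.39.

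Between heart and spleen, ENSGALG00000017370 ran from 6.16 to 6.83 in heart and from 5.57 to 6.08 in spleen, with no overlap, and had a log2 fold change of 0.60 (SE 0.07). By library size alone it lay the other way, at -0.63. ENSGALG00000012041 was higher in heart by 0.52, and -0.74 by library size alone. ENSGALG00000005745 and ENSGALG00000003947 were lower in heart, with log2 fold changes of -0.56 and -0.53. ENSGALG00000003947 was even in spleen, from 7.81 to 8.04 over 18 libraries, while it ran from 6.81 to 7.85 in heart.

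Between muscle and spleen, ENSGALG00000009085 had a median of 5.91 in muscle and 5.46 in spleen (log2 fold change 0.62, SE 0.07), and -0.80 by library size alone. ENSGALG00000017370 stood at 0.54, and at -0.88 by library size alone. ENSGALG00000016427 and ENSGALG00000000993 were lower in muscle, by log2 fold changes of -0.60 and -0.55. ENSGALG00000016427 averaged 5.31 ± 0.17 in muscle and 5.95 ± 0.12 in spleen, with 5.72 ± 0.24 in heart between them (SD, n = 18 each).

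**Figure D5:**
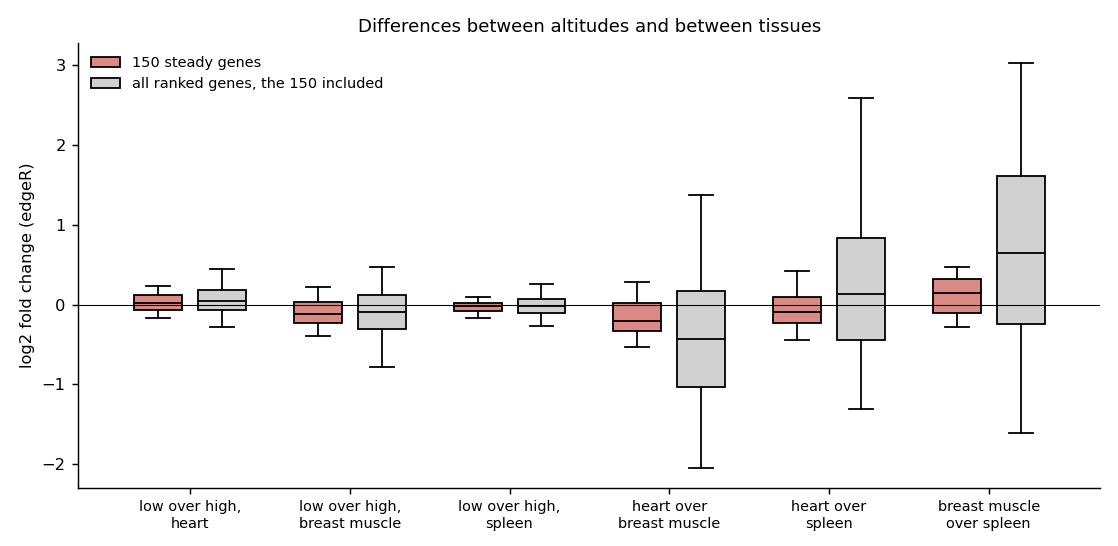
Log2 fold changes of the 150 steady genes (red) and of all ranked genes (grey) for low over high altitude in each tissue and between tissues, from edgeR with TMM scaling; boxes show quartiles, whiskers the central 90% of genes. The red boxes lie close to 0 in all 6 contrasts, and the grey ones are widest between tissues.

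Low and high altitude were compared within each tissue. No steady gene passed edgeR's test in heart, muscle or spleen, where 0%, 0.00988% and 0% of all genes did. At an unadjusted p under 0.05, 0 of the 150 stood in heart, 20 in muscle (13.3%) and 4 in spleen, against 6.05%, 18.2% and 5.77% of all genes. DESeq2 called 0, 4 and 0 steady genes, where it called 0.185%, 4.63% and 0.153% of all genes, and limma-voom called 0, 0 and 0, with 0% of all genes in each tissue. The 4 genes called by DESeq2 in muscle make 2.67% of the set. Among the 20 in muscle, 1 was higher and 19 were lower at low altitude, and over all genes 656 were higher and 1182 lower. Of the ranked genes 132 were higher and 474 lower. By limma-voom the steady genes split into 4 higher and 16 lower, and all genes into 1017 higher and 819 lower. The ranked genes split into 197 higher and 369 lower there. By edgeR without the libraries H1, H4, H7 and H8, 7 steady genes stood at an unadjusted p under 0.05 in muscle, against 11.9% of all genes.

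Log2 fold changes of low over high altitude had medians over the steady genes of 0.02 in heart, -0.11 in muscle and -0.02 in spleen. They ran from -0.24 to 0.34 in heart, from -0.64 to 0.40 in muscle and from -0.23 to 0.22 in spleen. Without hearts L4 and L5 the heart median was -0.02. Over all genes the medians were 0.00, -0.05 and 0.00. Over the ranked genes they were 0.04, -0.09 and -0.02. The median SE of a steady gene was 0.14 in heart, 0.16 in muscle and 0.10 in spleen. The median size of a difference, regardless of sign, was 0.09, 0.16 and 0.05. One sign in all 3 tissues was found in 44 steady genes (29.3%), 12 higher and 32 lower at low altitude, and in 36.8% of the ranked genes, 462 higher and 623 lower.

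The largest altitude differences among the steady genes were in muscle. ENSGALG00000005623 had a lowest value of 4.65, a median of 4.85 and a highest value of 5.36 in low altitude muscle, against 4.69, 5.24 and 6.28 in high altitude muscle. All but the lowest end of the low altitude range lay within the high altitude range, and the log2 fold change was -0.64 (SE 0.22, edgeR adjusted p = 0.141). Its spread was far smaller in the other tissues, from 4.65 to 5.20 over all hearts and from 4.78 to 5.31 over all spleens. ENSGALG00000003084 had medians of 5.18 at low and 5.69 at high altitude (log2 fold change -0.58, SE 0.18, edgeR adjusted p = 0.106). ENSGALG00000006657 ran from 6.89 to 7.55 at low and from 6.65 to 7.23 at high altitude, and its log2 fold change was 0.40 (SE 0.12, adjusted p = 0.113 by edgeR). ENSGALG00000006403 stood at 0.33 (SE 0.16). Without the libraries H1, H4, H7 and H8 the log2 fold changes were -0.13 for ENSGALG00000005623, -0.34 for ENSGALG00000003084, 0.26 for ENSGALG00000006657 and 0.10 for ENSGALG00000006403. DESeq2 called ENSGALG00000006657 and ENSGALG00000003084, with adjusted p of 0.0345 and 0.0430.

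In heart, ENSGALG00000013400 had a median of 5.71 at low and 5.51 at high altitude and a log2 fold change of 0.34 (SE 0.18), which was 0.16 without hearts L4 and L5. Its highest value, 6.48, was in heart L5. ENSGALG00000014949 stood at 0.31, ENSGALG00000016427 at -0.24 and ENSGALG00000009086 at -0.23. Without those hearts ENSGALG00000016427 stood at -0.15. All 4 had an edgeR adjusted p between 0.832 and 0.862. In spleen, ENSGALG00000009139 had medians of 5.92 at low and 6.05 at high altitude (log2 fold change -0.23, SE 0.08), and ENSGALG00000004935 had 6.66 and 6.89 (-0.21, SE 0.08). ENSGALG00000030533 and ENSGALG00000009086 stood at 0.22 and 0.19. Their edgeR adjusted p lay between 0.830 and 0.931.

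The rule was also applied to part of the libraries and its genes measured in the rest. When the rule was applied to the 27 low altitude libraries alone, the 150 genes it took had a median SD of 0.282 there and of 0.351 in the 27 high altitude libraries, scaled on their own, where the 2793 genes ranked had a median of 0.684. Of these genes 63 (42%) were also among the 150 steadiest in the high altitude libraries, and 135 (90%) were among the 0.25 of ranked genes with the lowest SD. Chosen on the high altitude libraries, the genes had a median SD of 0.302 there and of 0.320 in the low altitude libraries, against 0.640 over the 3071 ranked genes. Again 63 (42%) were among the 150 steadiest, and 148 (98.7%) were among the 0.25 of ranked genes with the lowest SD. Low and high altitude libraries came from the same tissues, and tissue made up a median of 67.0% of a ranked gene's variance over all libraries. A gene of even level across tissues in one part can therefore rank low in the other through its tissue means. The overlap is thus a description and does not test steadiness apart from tissue. Ranked genes drawn at random would be among the 150 steadiest at a rate of 150 in 2793 or 150 in 3071. Their rate among the 0.25 of lowest SD would be 0.25. Of the genes chosen at low altitude, the one placed worst came at rank 2127 of 2793 in the high altitude libraries. Of those chosen at high altitude, the one placed worst came at rank 928 of 3071 in the low altitude libraries.

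For a tissue left out of the choice, TMM factors were still those of all 54 libraries, so the scaling had used it. Genes chosen in muscle and spleen shifted in heart by a median of 0.477 log2, where all genes ranked there shifted by 0.518. Chosen in heart and spleen, they shifted in muscle by 0.654, against 0.896. Chosen in heart and muscle, they shifted in spleen by 0.502, against 0.919. More than 2-fold shifts were found in 11, 45 and 26 of the chosen genes (7.33%, 30% and 17.3%), against 20.3%, 45.5% and 46.5% of all genes ranked. Their spread between libraries of the tissue left out was below that of the genes ranked. Medians were 0.270 against 0.357 in heart, 0.329 against 0.429 in muscle and 0.190 against 0.266 in spleen. The minimum CPM was asked for only in the tissues kept, which gave 3241, 3535 and 3794 ranked genes without heart, muscle or spleen. Genes low in the tissue left out can be among them, so these comparisons are descriptions and do not test steadiness.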

How the data were processed

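The authors deposited 1 file of whole-number counts per gene for each of 54 libraries and, judging from the values, no normalization. The submitters' processing notes name HISAT2 2.0.4, featureCounts, FastQC, Cuffdiff, Cufflinks and galGal4, without roles. Per the labels' protocols, a stranded TruSeq mRNA kit was used. Whether counting used strand is not stated, so overlapping, antisense and near-identical genes are uncertain. Of 24881 identifiers, 21515 had a count.

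CPM were computed with TMM factors in edgeR 4.0.16 (R 4.3.3), and log2 levels with a pseudocount of 1. Contrasts used edgeR's robust quasi-likelihood test after its default filter on low counts, which all 150 genes passed, with p adjusted over all genes tested; an SE is the fold change over the root of F. DESeq2 1.42.0 and limma-voom (limma 3.58.1) were alternatives. Counting error is the delta-method error of a Poisson count. The edgeR fits and the choice of genes were run on simulated counts as a check of the procedure. Genes made steady there were given less spread than all others, so the check does not bear on the cutoff of the real list. No 2 libraries of a group agreed within sampling noise: the lowest chi-square per degree of freedom over 216 pairs was 18.2.

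The rule for the genes, the lists and the alternatives were written with earlier results of these data known. Named genes are, by rule, those of lowest and highest SD and, per contrast, the 2 highest and 2 lowest fold changes among the 150, a limit of 2 set for identifiers with no symbol; the gene just outside the list is named as well. The lists of pathway and marker genes were by symbol and were not used.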

Additional observations from a re-analysis of the deposited data

Results flagged for a closer look

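Values per library were examined for a single library far from the rest of its group. This was done in 54 sets of 9 libraries, and 4 sets had one. About 2.7 would be flagged among 54 independent sets. The sets here share libraries and are all of genes chosen on the same values, so that number is no measure of chance for them. The share of counts held by the steady genes in high altitude muscle was highest in H1, at 1.35%, and 0.852% in the next library. ENSGALG00000004683, the steadiest gene, was lowest among low altitude spleens in L7, at 6.76 log2(CPM + 1), with the next at 7.07. ENSGALG00000005623 was highest among low altitude muscles in L8, at 5.36, with the next at 4.98. ENSGALG00000009086 was highest among low altitude spleens in L8, at 8.91, with the next at 8.13. H1 also had the lowest share of counts in its 20 most abundant genes of the high altitude muscles, 13.9%, and its part in the first value was not tested.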

How the results depend on the processing

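Of the 150 genes, 0 were chosen again by library size alone, 53 with a minimum mean CPM of 50, 92 by median absolute deviation, 36 by the mean of the SDs within tissues, 67, 44 and 62 with heart, muscle or spleen left out, and 90 in low altitude libraries alone. Leaving out 1 library kept 135 to 149. RLE and upper-quartile factors kept 134 and 106, pseudocounts of 0.25 and 5 kept 146 and 135, a minimum of 10 kept 123, keeping the most abundant genes 149, and high altitude libraries alone 115. By library size 43 steady genes passed for heart over muscle and 150 for each contrast with spleen, against 87, 70 and 83 with TMM; against a fold of 1.5 it was 1, 0 and 0. DESeq2 called 4 in muscle between altitudes, where edgeR called 0. The causes were not tested. Signs turned by library size in ENSGALG00000017370 (-0.63 over spleen in heart, -0.88 in muscle), ENSGALG00000012041 (-0.74) and ENSGALG00000009085 (-0.80). With the code as a replicate block 87, 74 and 83 passed between tissues, and with the replicate number as a block 0 between altitudes in each tissue. The labels do not state that a code pairs libraries, and not every pair passed 0.1: same-code departures correlated from 0.07 to 0.33 between heart and muscle, 0.07 to 0.48 between heart and spleen and -0.02 to 0.24 between muscle and spleen, and 8, 14 and 11 of 18 codes correlated best with their own. Same-numbered low and high altitude libraries correlated from -0.31 to 0.53, and 2, 1 and 1 of 9 were best with their own number in heart, muscle and spleen. The lowest count of a steady gene in any library was 68.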
